A study of Mus musculus with 6 samples.

Results

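Genes of DNA repair, deoxynucleotide synthesis and chromatin assembly were followed in Pax6-deficient and control retinal progenitor cells (RPCs) of the embryonic mouse. The set was given as 34 gene symbols, and 32 of them had a probe set annotated to 1 gene, out of 18193 genes measured in all. Of these, 19 were DNA repair genes, 7 were nucleotide synthesis genes and 6 were chromatin assembly genes, while Xrcc2 and Chaf1a were not analysed here. The 32 genes had 81 probe sets, and the brightest one, on average over the 6 arrays, stands for its gene. The study compared 3 mutant pools, Pax6 loxP/loxP;α-Cre, with 3 control pools, Pax6 +/+;α-Cre, all from E12 embryos of the ICR strain. The mutant and the control embryos both carried the α-Cre transgene, in which the P0 promoter and the retinal enhancer α of Pax6 drive Cre and GFP, which directs Cre, and with it the sort, to the distal retina. The floxed allele loses the start codon of Pax6 and the exons of the paired domain. A pool held 1800000 GFP-positive cells sorted from eyes, and each pool was read on 1 Affymetrix Mouse Genome 430 2.0 array.

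A dividing progenitor copies its genome in every S phase, and repair factors act at the replication fork as well as at breaks made elsewhere. Homologous recombination and the Fanconi anaemia pathway restart or rebuild forks that have stalled, mismatch and base excision repair remove wrong bases, and the ATR checkpoint holds the cycle until the fork is stable. Deoxynucleotides are made mainly when they are used, and the new DNA is packed into chromatin and methylated behind the fork. Transcription of many of these genes is known to peak at the passage from G1 into S phase under E2F transcription factors. Pax6, a paired domain and homeodomain transcription factor, is required in RPCs for normal proliferation and for most neuronal fates.

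Levels are given as log2 of the RMA intensity, a normalised brightness of the probe set, and differences are log2 fold changes, mutant minus control. A gene is said to have fallen where limma's test, adjusted by the method of Benjamini and Hochberg over all 45037 probe sets, gave an adjusted p under 0.10. The stricter call of the methods also asks for a fold change of at least 1.5 and p under 0.05. The looser call comes first because the genes were chosen with earlier results of these data known and with small falls expected. The counts and shares below are therefore no independent evidence of a fall. In mutant RPCs 23 of the 32 genes fell, which is 71.9% of them, against 5.22% of all genes. None rose, at an adjusted p under 0.10 or at an unadjusted p under 0.05, while 7.15% of all genes rose. The falls were small. The median log2 fold change was -0.35, against -0.01 over all genes, and only Fancd2 and Exo1 met the stricter call, 2 of 32 genes against 0.918% of all genes. For 30 of the 32 genes, or 93.8%, all 3 mutant arrays were lower than all 3 control arrays, and the same held for 16.4% of all genes. The 2 exceptions were Fanci, with a log2 fold change of -0.16, and Dck, with 0.02. The spread within a group was low, with a median SD of 0.065 in mutant and 0.092 in control RPCs (n = 3 each).

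**Figure D1:**
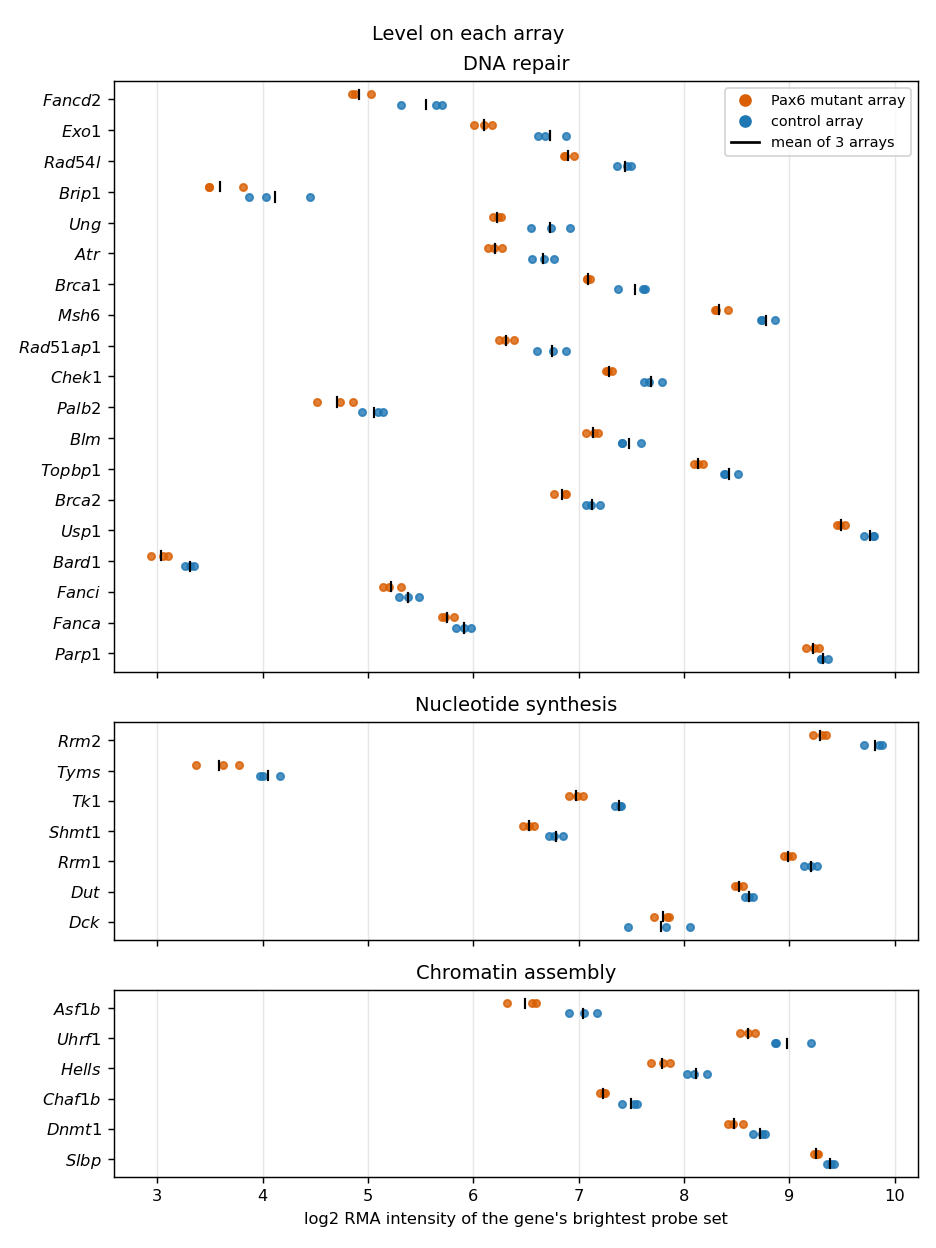
Log2 RMA intensity of each gene on the 3 mutant arrays and the 3 control arrays, 1 point per array, with a black line at the mean of 3 arrays. Within each panel the genes run from the lowest to the highest log2 fold change, and the points of the 2 groups overlap only for Fanci and Dck.

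The arrays bear on these values in several ways. Of 5 Pax6 probe sets, 1 was at 4.71 ± 0.23 in mutant and 6.31 ± 0.15 in control RPCs (SD, n = 3 each), so that the difference was -1.60 on the log2 scale (limma, adjusted p = 0.00329). The other 4 had log2 fold changes between -0.22 and 0.10 and did not pass, and the sources used here do not say which probe sets lie in the deleted part. Intensities of retinal progenitor markers, all 9 above the array median, summed to between 5586 and 5746 on mutant arrays and between 8083 and 8485 on control arrays, and 4 of the 9 fell. Most of this gap lay in Sfrp2, at 10.68 in mutant and 11.66 in control RPCs, and Fgf15, at 8.74 in mutant and 10.17 in control RPCs. The other 7 markers summed to between 3568 and 3699 on mutant arrays and between 3894 and 3982 on control arrays, and the median log2 fold change of the 9 was -0.19, with only Hes1 positive (0.06). Newborn neuron markers summed to between 1093 and 1196 on mutant arrays and between 2155 and 2807 on control arrays, and 8 of 12 fell, while Neurod4, Pou4f1 and Dcx lay below the array median. Markers of other cells of the eye went the other way. Pigment epithelium markers summed to between 8574 and 8658 on mutant and between 5616 and 6844 on control arrays (8 of 10 rose, Rpe65 below the array median), and lens and surface ectoderm markers to between 4688 and 4942 and between 2655 and 3671 on the same arrays (5 of 9 rose). Mesenchyme markers summed to between 811 and 1123 on mutant and between 529 and 569 on control arrays (4 of 9 rose, Foxc2 and Twist1 below the array median), and endothelial markers to between 1030 and 1096 and between 592 and 798 on the same arrays (6 of 9 rose). Blood and macrophage markers summed to between 11896 and 12704 on mutant and between 8512 and 11422 on control arrays, and 1 of 9 rose, with Hba-a1 below the array median. These marker levels moved with the groups, and their part in the falls was not tested. In a bulk sample fewer cells of a type and less RNA per cell cannot be told apart.

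Among the 19 DNA repair genes, 14 fell in mutant RPCs, with a median log2 fold change of -0.41, or 1.32-fold. The remaining 5, Palb2, Brip1, Fanca, Fanci and Parp1, were also lower on average without passing. The range ran from Fancd2 at -0.64 to Parp1 at -0.10. Without mutant replicate 1 or without mutant replicate 2 the count that fell was 6, and without mutant replicate 3 it was 8, with a single library fewer in the fit. It was also 6 without moderation of the variance.

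Homologous recombination genes had a median log2 fold change of -0.43, and 5 of 7 fell. Rad54l, a motor protein of homologous recombination, fell most among them. It was at 6.86, 6.96 and 6.87 on the mutant arrays and at 7.36, 7.50 and 7.46 on the control arrays. Each mutant array lay clearly below each control array, and the log2 fold change was -0.54 (standard error, SE, 0.07, limma adjusted p = 0.00921). Brca1, which directs broken ends to recombination, was at 7.08, 7.08 and 7.11 on the mutant arrays and at 7.37, 7.61 and 7.63 on the control arrays, with a log2 fold change of -0.45 and an adjusted p of 0.0296. The 3 mutant arrays were almost level and the control arrays were more spread. The other 3 probe sets of Brca1 fell too, by log2 fold changes of -0.39, -0.31 and -0.26. Rad51ap1, a factor of DNA strand pairing, was at 6.31 ± 0.07 in mutant and 6.75 ± 0.14 in control RPCs (SD, n = 3 each), and its log2 fold change was -0.43 (adjusted p = 0.0367). Brca1 and Rad51ap1 kept their log2 fold changes but not their pass without mutant replicate 1 (-0.45, adjusted p = 0.102, and -0.40, adjusted p = 0.122) or mutant replicate 2 (-0.44, just above the threshold, and -0.43, adjusted p = 0.114). Neither gene passed without moderation of the variance. Brca2, a mediator of recombination, and Bard1, the partner of Brca1 in a ubiquitin ligase, fell less, with log2 fold changes of -0.29 and -0.28 (adjusted p = 0.0573 and 0.0671). Brca2 passed under 10 of 16 alternative ways of processing, and missed the threshold without control replicate 1 or 3 or any 1 mutant array (adjusted p between 0.116 and 0.163) and without moderation of the variance (adjusted p = 0.123). Bard1 passed under 6 of the 16 and missed the threshold whichever array was left out (adjusted p between 0.108 and 0.173). It also missed with the replicate number as a block in the fit, after quantile normalization, with an intensity trend in the prior variance and without moderation. Bard1 was the dimmest of the 32 genes, at 3.03 in mutant and 3.31 in control RPCs, and the only one below the array median. Palb2, the bridge between Brca1 and Brca2, had a log2 fold change of -0.36 and just missed the threshold (adjusted p = 0.102). Brip1, a helicase that binds Brca1, was at 3.49, 3.49 and 3.81 on the mutant arrays and at 4.03, 4.45 and 3.87 on the control arrays. This dim and scattered gene had a log2 fold change of -0.52, with a 95% interval from -0.90 to -0.14 (adjusted p = 0.124).

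Of 4 Fanconi anaemia pathway genes 2 fell, and the median log2 fold change was -0.22. Fancd2, whose ubiquitylation is the central step of the pathway, had the largest fall of all 32 genes. It was at 4.88, 4.85 and 5.02 on the mutant arrays and at 5.64, 5.70 and 5.31 on the control arrays, which is 1.55-fold lower (log2 fold change -0.64, SE 0.11, limma adjusted p = 0.0262). Control replicate 3 lay nearest to the mutant arrays. The size of this fall rests on the brightest of 4 probe sets, since the second in brightness had -0.41 with overlapping arrays and the other 2 lay below the array median, at -0.21 and 0.05. Fancd2 fell short of the 1.5-fold limit without control replicate 2 (log2 fold change -0.56) and did not pass without moderation of the variance (adjusted p = 0.139) or by the median over its probe sets (log2 fold change -0.27). Usp1, the enzyme that takes the ubiquitin off Fancd2 again, was at 9.49 ± 0.04 in mutant and 9.77 ± 0.05 in control RPCs (SD, n = 3 each). All 3 probe sets of Usp1 fell, by log2 fold changes of -0.28, -0.40 and -0.43. The brightest one missed the threshold without control replicate 1 or 3 or any 1 mutant array, with adjusted p between 0.111 and 0.150. It also missed with the replicate block (adjusted p = 0.111). Fanci, the partner of Fancd2 in a clamp on DNA, and Fanca, a subunit of the core complex, both differed by -0.16 on the log2 scale without passing (adjusted p = 0.281 and 0.233).

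In the group of excision, mismatch and single-strand repair with the helicase Blm, 4 of 5 genes fell and the median log2 fold change was -0.44. Exo1, a nuclease of mismatch repair and end resection, was at 6.01, 6.10 and 6.18 on the mutant arrays and at 6.88, 6.61 and 6.68 on the control arrays. It was 1.54-fold lower (log2 fold change -0.63, SE 0.09, limma adjusted p = 0.0132), and its next probe set gave -0.62. The third, below the array median, gave -0.21 with overlapping arrays. Exo1 passed the adjusted p under every alternative, but its fold change fell below 1.5 without control replicate 1 (log2 fold change -0.55) and without mutant replicate 1 (-0.58). Ung, the glycosylase that removes uracil from DNA, was at 6.26, 6.24 and 6.19 on the mutant arrays and at 6.54, 6.73 and 6.91 on the control arrays. The control arrays of Ung were far more spread than the mutant arrays, and the log2 fold change was -0.50 (SE 0.10, adjusted p = 0.0351). Ung missed the threshold without mutant replicate 1, 2 or 3, with adjusted p of 0.102, 0.109 and 0.114, and also without moderation of the variance. Msh6, which recognises base mismatches, was at 8.34 ± 0.07 in mutant and 8.78 ± 0.07 in control RPCs (SD, n = 3 each), with a log2 fold change of -0.44 and an adjusted p of 0.0181. Blm, which unwinds recombination intermediates, differed by -0.34 on the log2 scale (adjusted p = 0.0485), and missed the threshold without mutant replicate 1, 2 or 3, with adjusted p of 0.115, 0.147 and 0.133, and without moderation of the variance (adjusted p = 0.136). Blm also missed it with the replicate block (adjusted p = 0.121). Parp1, the sensor of single-strand breaks, was at 9.15, 9.28 and 9.23 on the mutant arrays and at 9.30, 9.30 and 9.37 on the control arrays. It had the smallest difference of the repair genes, a log2 fold change of -0.10 (95% interval from -0.25 to 0.05, adjusted p = 0.423).

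All 3 genes of the replication checkpoint fell. Atr, the kinase that responds to stalled forks, was at 6.27, 6.20 and 6.14 on the mutant arrays and at 6.77, 6.56 and 6.67 on the control arrays, with a log2 fold change of -0.46 (SE 0.08, limma adjusted p = 0.0212). A dimmer Atr probe set fell by more, at 4.67 ± 0.11 in mutant and 5.28 ± 0.08 in control RPCs (SD, n = 3 each), and met the stricter call with a log2 fold change of -0.61. The dimmest lay below the array median and had a log2 fold change of 0.02. Chek1, the kinase that Atr activates, was at 7.28 ± 0.03 in mutant and 7.69 ± 0.09 in control RPCs (SD, n = 3 each), and its log2 fold change was -0.41 (adjusted p = 0.0223). This Chek1 value comes from a probe set that may read other transcripts as well, and the second in brightness had -0.41 with an adjusted p of 0.102. Topbp1, the activator of Atr, differed by -0.29 on the log2 scale (adjusted p = 0.0531). Atr passed under all 16 alternatives, whereas Topbp1 passed under 10. Topbp1 missed the threshold without control replicate 3 (adjusted p = 0.117), without mutant replicate 1, 2 or 3 (adjusted p of 0.121, 0.145 and 0.162) and without moderation of the variance (adjusted p = 0.112). The same held with the replicate block (adjusted p = 0.128).

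**Figure D2:**
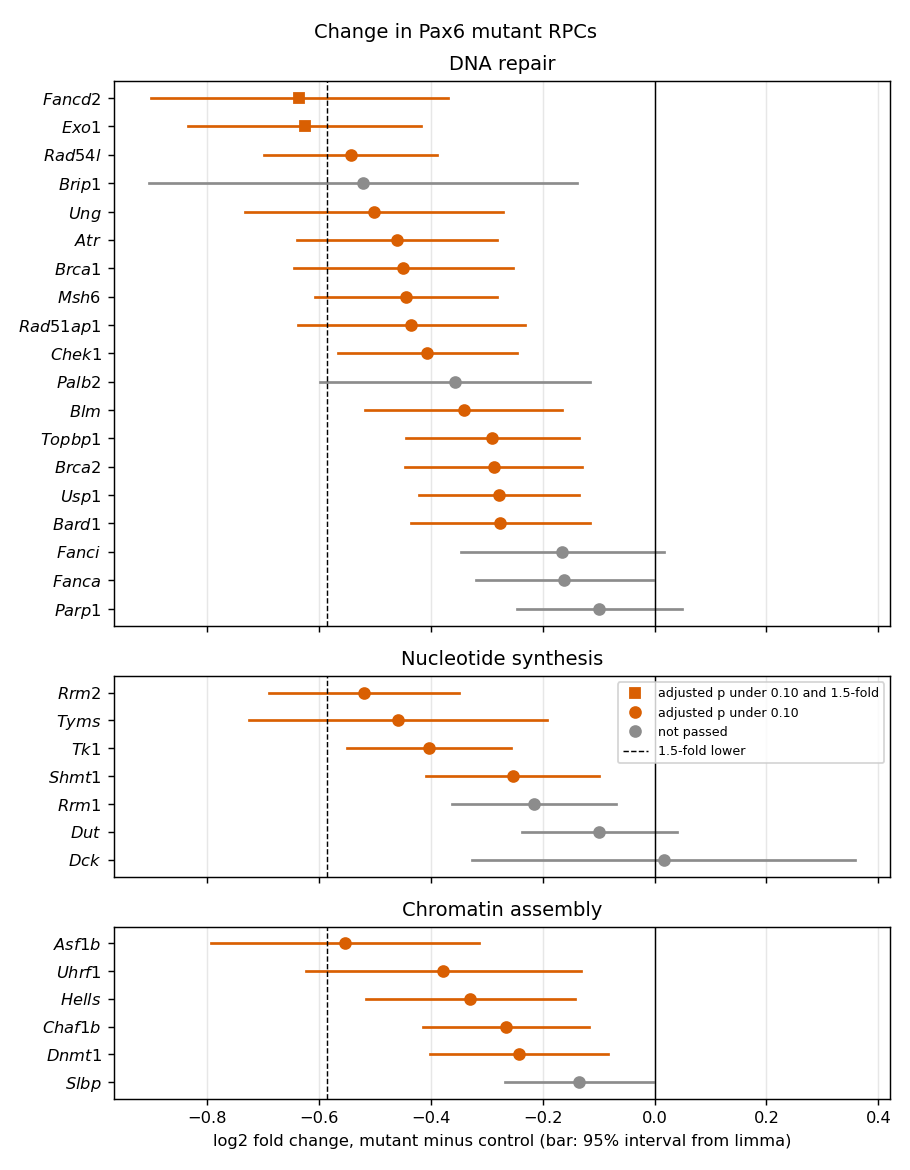
Log2 fold change of each gene, mutant minus control, with the 95% interval from limma. Squares met an adjusted p under 0.10 and a fold change of 1.5, orange circles an adjusted p under 0.10 alone and grey circles neither, and the dashed line marks a fold change of 1.5. The intervals of 14 genes reach beyond that line, and those of Fanci, Parp1, Dut and Dck reach above 0.

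Of the 7 nucleotide synthesis genes 4 fell, with a median log2 fold change of -0.25, and 1 was not lower at all. Rrm2, the regulatory subunit of ribonucleotide reductase, which makes all deoxynucleotides, fell most. It was at 9.31, 9.22 and 9.35 on the mutant arrays and at 9.71, 9.88 and 9.85 on the control arrays, a log2 fold change of -0.52 (SE 0.07, limma adjusted p = 0.0127). This brightest Rrm2 probe set may read other transcripts as well. The other 2 probe sets of Rrm2 fell too, with log2 fold changes of -0.35 and -0.49. Rrm1, the catalytic subunit of the same enzyme, was at 8.99 ± 0.04 in mutant and 9.20 ± 0.06 in control RPCs (SD, n = 3 each), with a log2 fold change of -0.22 and an adjusted p of 0.103. A nearly equally bright Rrm1 probe set passed, with -0.29 (adjusted p = 0.0472). Tk1, the thymidine kinase of S phase, was at 7.04, 6.91 and 6.99 on the mutant arrays and at 7.39, 7.40 and 7.35 on the control arrays. It fell by a log2 fold change of -0.40 (SE 0.06, adjusted p = 0.0174). Tyms, which makes thymidylate, was at 3.62, 3.37 and 3.77 on the mutant arrays and at 3.97, 4.17 and 4.0 on the control arrays, near the array median of 3.70, with a log2 fold change of -0.46 (SE 0.11, adjusted p = 0.0676). A much brighter probe set that is annotated to Tyms and its pseudogene together was at 8.22 ± 0.03 in mutant and 8.44 ± 0.03 in control RPCs (SD, n = 3 each), with a log2 fold change of -0.22 and an adjusted p of 0.0739, so that the size of the Tyms difference is uncertain. Tyms did not pass without control replicate 1, 2 or 3 or without mutant replicate 1 or 2, with adjusted p between 0.114 and 0.168, and the median over its probe sets had a log2 fold change of -0.18. Tyms did not pass by that median, with the replicate block or without moderation of the variance either. Shmt1, which supplies single-carbon units for thymidylate, differed by -0.25 on the log2 scale (adjusted p = 0.0766). Dut, which keeps dUTP low, was at 8.52 ± 0.04 in mutant and 8.62 ± 0.04 in control RPCs (SD, n = 3 each), and its log2 fold change of -0.10 did not pass (adjusted p = 0.391). Dck, the salvage kinase for deoxycytidine, was at 7.84, 7.71 and 7.86 on the mutant arrays and at 7.83, 7.46 and 8.06 on the control arrays. The control arrays of Dck spanned the mutant ones, and the log2 fold change was 0.02, with a 95% interval from -0.33 to 0.36. The other 2 probe sets of Dck had log2 fold changes of 0.11 and 0.21, neither of which passed. Leaving out 1 array at a time brought the count to 2, Rrm2 and Tk1, except for mutant replicate 3, without which 3 genes fell.

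Of the 6 chromatin assembly and methylation genes 5 fell, the median log2 fold change was -0.30 (1.23-fold), and the arrays of the 2 groups overlapped for none. Asf1b, a chaperone that hands histones H3 and H4 to the assembly factors, fell most. It was at 6.59, 6.32 and 6.56 on the mutant arrays and at 6.91, 7.05 and 7.17 on the control arrays, a log2 fold change of -0.55 (SE 0.10, limma adjusted p = 0.0292). Uhrf1, which reads hemimethylated DNA behind the fork, was at 8.60, 8.67 and 8.53 on the mutant arrays and at 8.87, 8.87 and 9.20 on the control arrays. Control replicate 3 stood above the other control arrays, and the log2 fold change was -0.38 (SE 0.10, adjusted p = 0.0922), or -0.27 without that array. Dnmt1, the maintenance methyltransferase that Uhrf1 recruits, was at 8.48 ± 0.07 in mutant and 8.72 ± 0.06 in control RPCs (SD, n = 3 each). The log2 fold change was -0.24, with an adjusted p of 0.0933. This Dnmt1 probe set may read other transcripts as well, and the next in brightness had a log2 fold change of -0.31. Hells, a chromatin remodeller needed for methylation of repeats, was at 7.80, 7.69 and 7.87 on the mutant arrays and at 8.22, 8.03 and 8.09 on the control arrays, with a log2 fold change of -0.33 (SE 0.08, adjusted p = 0.0627). A second Hells probe set fell by far more. It was at 5.76, 5.99 and 5.69 on the mutant arrays and at 6.74, 6.52 and 6.56 on the control arrays, which is 1.73-fold lower (log2 fold change -0.79, adjusted p = 0.0104). The third and dimmest had -0.48. Chaf1b, the middle subunit of chromatin assembly factor 1, fell by a log2 fold change of -0.27 (adjusted p = 0.0601), whereas Slbp, the binding protein of histone mRNA stem loops, had -0.14 and did not pass (adjusted p = 0.229). A second Chaf1b probe set, below the array median, had -0.04 with overlapping arrays (adjusted p = 0.871). Chaf1b passed under 8 of the 16 alternatives, and not by the median over its probe sets. Asf1b passed without any single array. It was the only 1 of the 6 to pass without control replicate 1 or without any 1 mutant array, and 2 passed without control replicate 2 or control replicate 3. With each array scaled to its own median, 3 of the 6 passed, without Uhrf1 and Dnmt1. Without moderation of the variance in limma none of the 6 passed, with 6 at an unadjusted p under 0.05, and their log2 fold changes were as before, while 407 of all genes fell in place of 950.

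**Figure D3:**
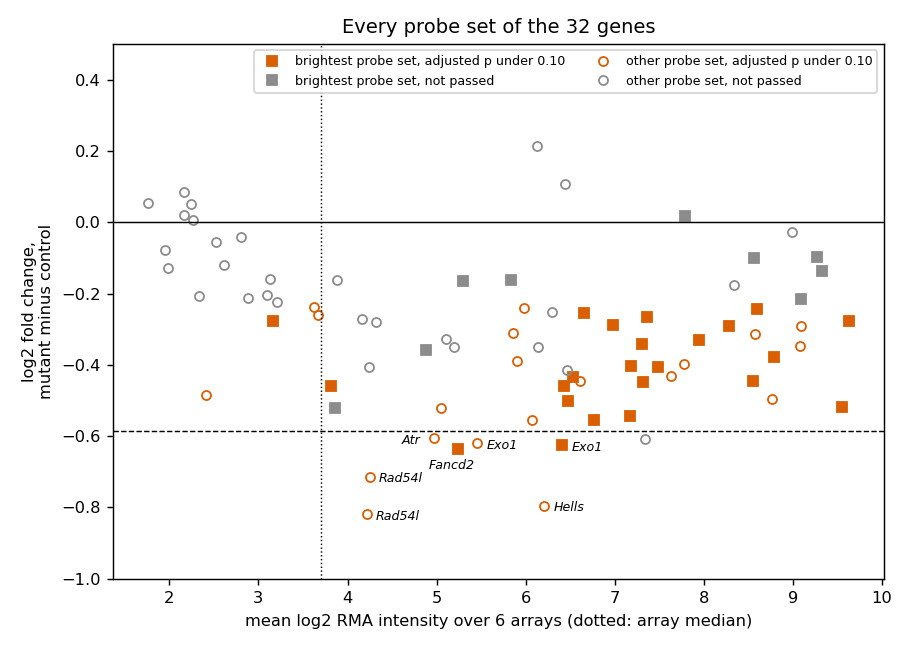
Log2 fold change, mutant minus control, against the mean log2 RMA intensity over the 6 arrays for each of the 81 probe sets of the 32 genes. Filled squares are the probe sets that stand for a gene and open circles the others, orange marks an adjusted p under 0.10, the dashed line a fold change of 1.5 and the dotted line the array median of 3.70. Named points met the stricter call.

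The choice of probe set changed sizes more than directions. Of the 81 probe sets 73 had a negative log2 fold change, 43 fell and none rose, and 7 met the stricter call. Over all genes, each by its brightest probe set, 52.9% were negative, 5.22% fell and 7.15% rose. The stricter call for a fall was met by 0.918% of all genes. These shares are per gene, and shares over all probe sets were not counted, so the probe set counts have no direct background. Among the 49 probe sets that were not the brightest of their gene, 31 lay above the array median, and of these 29 were negative and 17 fell. Of the 32 genes, 23 had more than 1 probe set and 26 had negative values only. The stricter call differed between probe sets for Rad54l, Fancd2, Exo1, Atr and Hells. Dimmer probe sets of Rad54l, at 3.89 and 3.81 in mutant and 4.60 and 4.63 in control RPCs, had log2 fold changes of -0.71 and -0.82, while its brightest, at -0.54, was just short of 1.5-fold. The dimmest of the 4, below the array median, had -0.20 with overlapping arrays (adjusted p = 0.326). A second one for Uhrf1 had -0.61 with overlapping arrays (adjusted p = 0.122).

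Other genes of the same pathways were counted in the same way. Of 27 other homologous recombination and Fanconi genes 4 fell, with a median log2 fold change of -0.14. The largest falls were those of Rad51b (-0.87), a recombination gene, and Fancb (-0.76), a subunit of the core complex, both dim at 3.27 and 3.70 in mutant and 4.14 and 4.46 in control RPCs. Of 15 other checkpoint genes 3 fell, with a median of -0.18, among them Cdc25a (-0.38), the phosphatase that Chek1 restrains, and Mdc1 (-0.37), an adaptor at breaks. Of 17 other mismatch and base excision genes 4 fell, with a median of -0.18, led by the glycosylase gene Neil3 (-0.53) and the mismatch repair gene Pms2 (-0.52). End joining and nucleotide excision genes were counted as well. None of 8 end joining genes fell or rose, with 1 at an unadjusted p under 0.05 and a median of -0.04. Of 16 nucleotide excision genes, which repair bulky damage, Ercc8 fell (-0.47), Ercc3 rose (0.29) and the median was -0.01. That 1 of 16 fell, or 6.25%, is near the 5.22% of all genes and says nothing of the list. The difference between these lists was not tested.

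For supply of nucleotides, 4 of 14 other deoxynucleotide and folate genes fell, with a median log2 fold change of -0.08. They included the mitochondrial folate enzymes Mthfd2 (-0.70, adjusted p = 0.0147), which met the stricter call, and Shmt2 (-0.42). Of 18 genes of purine and pyrimidine precursors 5 fell, with a median of -0.13, led by Ppat (-0.53) and Pfas (-0.44), both of purine synthesis. For chromatin, 1 of 19 other histone chaperone genes fell, the H1 and H3 chaperone gene Nasp (-0.32), with a median of -0.11. This share of 5.26% is also near that of all genes. Of 12 other DNA methylation genes 4 fell, with a median of -0.07, among them Cdca7 (-0.43), an activator of Hells, and the de novo methyltransferase gene Dnmt3b (-0.32). Lists of the cell cycle itself had medians near that of the 32 genes. Of 46 replication origin and fork genes 31 fell, with a median of -0.34, led by Pole2 (-0.64) and Timeless (-0.60), and of 24 mitosis genes 20 fell, also with a median of -0.34, led by Ncapd2 (-0.63) and Nusap1 (-0.59). Of 13 genes of the E2F, Rb and Myc families 5 fell, with a median of -0.17, and the largest falls were those of Mycn (-0.92) and the repressor gene E2f7 (-0.49). Among the marker genes with an adjusted p under 0.10, the 2 largest changes per list were as follows. They were Fgf15 (-1.43) and Sfrp2 (-0.98) for progenitors and Isl1 (-1.70) and Neurod1 (-1.49) for newborn neurons. They were Mlana (0.72) and Tyrp1 (0.68) for pigment epithelium and Krt14 (1.31) and Krt5 (0.72) for surface ectoderm. For mesenchyme they were Foxc1 (0.83) and Col1a2 (0.79), and for endothelium Cdh5 (1.23) and Tek (0.98). The highest mesenchyme value, 0.98, did not pass. Hbb-bh1 (1.00) was the blood marker that rose.

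**Figure D4:**
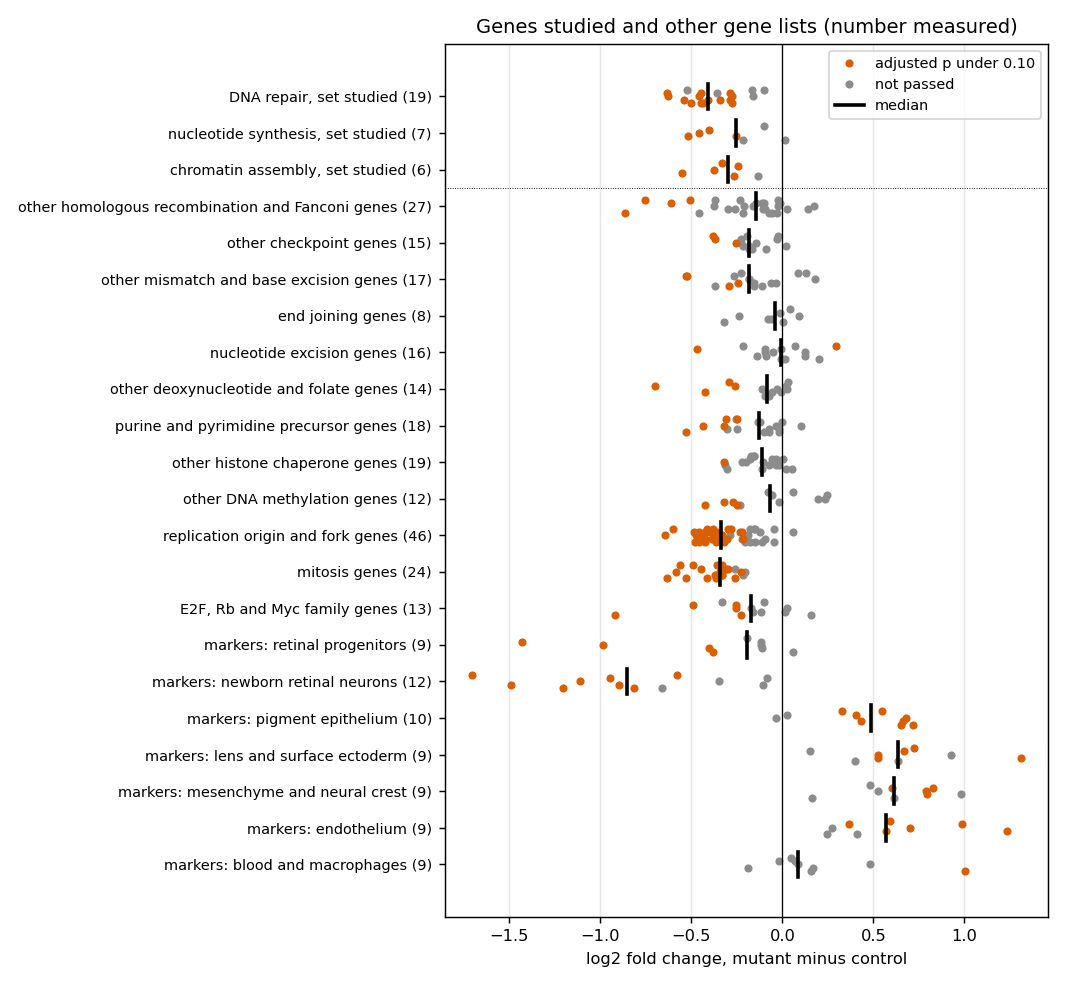
Log2 fold change, mutant minus control, of each gene in the 3 sets studied (above the dotted line) and in other gene lists, 1 point per gene, orange where the adjusted p was under 0.10, with a black line at the median. The medians of replication and mitosis genes, both -0.34, lie near those of the 3 sets, and the other repair, nucleotide and chromatin lists lie between -0.18 and -0.01.

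Promoter sequence was set beside these values because E2F factors are known regulators of this kind of gene. RefSeq promoter windows of 300 bases (mouse build GRCm38.p6, 250 bases before the annotated start and the rest after it) were matched for 29 of the 32 genes. Fancd2, Usp1 and Exo1 were not searched, so that the 2 genes with the largest falls are left out of what follows. Of the 29 genes, Rad54l and Uhrf1 had 2 windows each and Dnmt1 had 3, all of which were searched, and a gene was counted where any of its windows held the motif. Both strands were searched for the E2F forms TTTCCCGC, TTTCGCGC, TTTGGCGC and TTTGCCGC, for the CCAAT box (CCAAT), for the CHR element (TTTGAA) and for the GC box (GGGCGG), matches of which may overlap. An E2F form lay in the windows of 7 of the 29 genes (24.1%), against 3.81% of 14452 genes on the arrays and 2.6% of all 27025 genes of the table. These were 4 of 16 repair genes, 3 of 6 chromatin genes and none of 7 nucleotide genes. In Uhrf1 only 1 of 2 windows held a form, and in Dnmt1 only 1 of 3. A CCAAT box lay in 51.7% of the 29 genes and 42.0% of genes on the arrays, a GC box in 82.8% and 57.3%, and a CHR element in 13.8% and 15.7%. Taking only the first window of each gene, the 29 genes also held slightly more G and C. The median was 60.7% against 58.7% for genes on the arrays. These are matches of letters and not measured binding. The 8 matches are shown with the bases around them, on the strand that reads as the E2F form, with the form in capitals, to let the forms be compared.
Brca2, chr5:150522443-150522470, minus strand: tgtgtgtctgTTTCCCGCtgtggcctaa
Bard1, chr1:71103164-71103191, minus strand: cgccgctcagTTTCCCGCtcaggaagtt
Msh6, chr17:87975055-87975082, plus strand: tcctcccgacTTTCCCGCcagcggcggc
Topbp1, chr9:103305188-103305215, minus strand: gggaaccgacTTTCGCGCcaaccgagcg
Uhrf1, chr17:56304118-56304145, plus strand: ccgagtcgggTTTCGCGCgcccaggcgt
Dnmt1, chr9:20952825-20952852, plus strand: accccggcttTTTCGCGCgcgcggaaac
Dnmt1, chr9:20952574-20952600, minus strand: cggggcagcgTTTGGCGCgggctgtgc
Hells, chr19:38930918-38930945, plus strand: accaccgggtTTTCCCGCgaaagagaag

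The form TTTCCCGC was the match in Brca2, Bard1, Msh6 and Hells, TTTCGCGC in Topbp1, Uhrf1 and Dnmt1, and TTTGGCGC in the second match of Dnmt1. The 7 genes that hold a form all fell in mutant RPCs, by log2 fold changes between -0.24 for Dnmt1 and -0.44 for Msh6, and 13 of the 22 searched genes without a form fell as well. Without any 1 mutant array, Msh6 was the only 1 of the 7 to pass, with 6, 6 and 9 of the 22 others passing without mutant replicate 1, 2 and 3. Of the 7, 2 passed without control replicate 1, 4 without control replicate 2 and 1 without control replicate 3. Of the 22 others, 10, 10 and 12 passed in the same fits. With the replicate block 3 of the 7 and 10 of the 22 passed, and without moderation of the variance 1 and 5. Under the remaining alternatives 5 to 7 of the 7 and 12 to 17 of the 22 passed. The difference between these shares was not tested. Among the searched genes, those with larger falls held none in the window, Rad54l, Rrm2 and Asf1b among them, which says only that these letters are not there. Of the 3 chromatin genes with the largest falls, Uhrf1 and Hells held a form, and the 250 bases before the annotated start of the window that holds it are given whole to show where it lies.
Uhrf1, chr17:56304063-56304312, plus strand: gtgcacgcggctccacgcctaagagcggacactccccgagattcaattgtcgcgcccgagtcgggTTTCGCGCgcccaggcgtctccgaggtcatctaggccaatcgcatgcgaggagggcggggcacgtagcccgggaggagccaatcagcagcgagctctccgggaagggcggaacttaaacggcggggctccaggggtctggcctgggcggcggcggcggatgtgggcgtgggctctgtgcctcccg
Hells, chr19:38930740-38930989, plus strand: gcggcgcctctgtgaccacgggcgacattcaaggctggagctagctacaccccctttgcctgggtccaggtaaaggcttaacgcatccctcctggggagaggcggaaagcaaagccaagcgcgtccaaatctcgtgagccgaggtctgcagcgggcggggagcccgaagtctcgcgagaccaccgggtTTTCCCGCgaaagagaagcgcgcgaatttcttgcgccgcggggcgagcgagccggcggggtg

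Capitals mark the E2F form in both. In Uhrf1 it began 185 bases before that start, which is 1 of 2 annotated for the gene, and in Hells 62 bases before its start.

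Over the 16 alternative ways of processing, 31 of the 32 genes had a negative log2 fold change under every one, and 6 passed under every one. These 6 were Rad54l, Exo1, Msh6 and Atr among the repair genes and Rrm2 and Tk1 among the nucleotide genes. The count of the 32 genes that fell was 9 without mutant replicate 1 or mutant replicate 2, 12 without mutant replicate 3, 14 without control replicate 1, 17 without control replicate 2, 15 without control replicate 3 and 8 without moderation of the variance, against 23 of 32. With 5 arrays in place of 6, the number of genes that fell among all 18193 also shrank, to between 388 and 686 in place of 950. The log2 fold changes moved little, with medians of the 32 genes between -0.38 and -0.33 when any single array was left out.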

How the data were processed

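RNA of 6 sorted RPC pools, 3 mutant and 3 control, was hybridised to 1 array each, and the study calls the pools biological replicates. RMA, used by the authors to summarise the probes, removes background and brings the arrays to 1 distribution, and the submitters' notes also name Affymetrix Expression Console. The deposited values were intensities on a linear scale. After log2, and without 64 control probe sets, 45037 remained, and the groups were compared with limma 3.58.1 in R 4.3.3 (lmFit, eBayes, Benjamini-Hochberg over all probe sets). Probe sets were named from the platform annotation, in which 34945 had 1 symbol, 932 several and 9160 none. A gene was represented by its single-symbol probe set with the highest mean. Thresholds (fold change of 1.5, p of 0.05, false discovery rate of 10%) follow the methods, and their further check with SAM was not repeated. Sequences came from RefSeq windows of GRCm38.p6. The fit was tested on simulated data.

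The genes studied and all gene lists were chosen with earlier results of these data known. Their direction and the share of them that fell are therefore no independent evidence. Small falls were expected, so that the adjusted p alone was taken as the first call. The genes chosen to be described array by array were the 3 with the lowest and the 1 with the highest log2 fold change in each set. Those that met the stricter call, and those whose probe sets differed in it, were chosen too. Brca1, Brip1 and Ung were described in this way outside that rule. Slbp, the highest of the chromatin set, was given by its log2 fold change only. From each other list the 2 genes with the largest changes among those with an adjusted p under 0.10 were named. Pax6 and a second Hells probe set were named as checks. The E2F matches shown were chosen after the search, apart from Uhrf1 and Hells. Alternatives were a replicate block, leaving out each array, array medians or quantiles, a trend or no moderation of the variance, array weights, 16 added to the intensity, leaving out the dimmest 40%, the median over probe sets, and no probe sets that may read several transcripts. Arrays give no depth, and their number limits the precision.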

Additional observations from a re-analysis of the deposited data

How the results depend on the processing

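The 3 sets had negative medians under all 16 alternatives. Counts at an adjusted p under 0.10 changed with the estimate of the variance and when an array was left out. Without mutant replicate 1, 2 or 3 the number of all genes that fell was 399, 388 and 416. Without control replicate 1, 2 or 3 it was 686, 546 and 660. What made the counts drop was not tested. When arrays were left out in turn, 9 to 17 of the 32 genes fell, 6 to 13 repair genes, 2 to 3 nucleotide genes and 1 to 2 chromatin genes, and 1 to 3 genes met the stricter call, 1 to 3 of them repair and 0 to 1 chromatin genes. The median log2 fold change then lay between -0.43 and -0.35 for repair and between -0.31 and -0.28 for chromatin genes. Without moderation 8 genes fell (6 repair, 2 nucleotide, 0 chromatin) and 1 repair gene met the stricter call. With each array's median subtracted 3 chromatin genes fell. With 16 added to the intensity, which shrinks the fold changes of dim genes by construction, 0 genes met the stricter call, among repair genes and in all, and the medians were -0.27 for all, -0.31 for repair and -0.28 for chromatin genes. With the median over a gene's probe sets 4 genes met the stricter call, 1 of them a chromatin gene, and the medians were -0.35 for repair and -0.40 for chromatin genes. Without probe sets that may read several transcripts the chromatin median was -0.32. Dck, which never passed, lay between -0.14 and 0.15 when arrays were left out in turn, negative without control replicate 2 (-0.14), and at -0.0010 and -0.011 without mutant replicate 1 and mutant replicate 3, and was also negative with array weights (-0.00030).

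Mutant and control pools share replicate numbers. Deviations from the group means of same-numbered arrays correlated at -0.011, -0.00064 and -0.0085, and 0 of 3 mutant arrays correlated best with the control array of its number. No pairing by number was seen, but with 3 arrays per group these values cannot settle whether same-numbered pools were handled together. With the replicate block 15 of the 32 genes fell (11 repair, 2 nucleotide, 2 chromatin), and 577 of all genes fell in place of 950.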
